A study of Homo sapiens with 15 samples.

Results

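Translation initiation factors are the proteins that bring the small ribosomal subunit, the initiator methionyl-tRNA and the mRNA together at a start codon. The genes described here are the rows of 3 deposited expression tables whose symbol starts with EIF and a digit, without the eIF2α kinases (EIF2AK genes) and without EIF2S1, which encodes eIF2α itself. There were 51 such genes among 18338 genes with values, and 46 of them had a mean of at least 1 FPKM (fragments per kilobase of transcript, scaled to the mapped fragments of a library) over all libraries and entered the tests. RNA-Seq had been made from Biosensor cells, HEK293 human embryonic kidney cells in which a stable transgene, shared by every group, expresses the tau repeat domain with the P301S change fused to YFP (a yellow fluorescent protein). Of 15 libraries, 5 came from cells given brain lysate of wildtype mice (control), 5 from cells given brain lysate of PS19 mice, which express human P301S tau, and 5 from cells treated with 0.3 µM thapsigargin. The sources used here give neither the time in thapsigargin nor whether those cells also received lysate, so any effect of the lysate itself cannot be told apart from that of the drug. All libraries came from 1 cell line, and replicates within a group are called independent without naming separate cultures, so what the p-values measure is library-to-library spread, part of which may be technical. The comparison of PS19 with control lysate addresses what seeded tau aggregation does to RNA levels, and thapsigargin served as the reference for endoplasmic reticulum (ER) stress.

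Initiation begins with a ternary complex of eIF2, GTP and initiator tRNA, and eIF2B reloads eIF2 with GTP after each round. eIF1, eIF1A, eIF3 and eIF5 sit with this complex on the small subunit, while eIF4E binds the mRNA cap and, with the scaffold eIF4G and the helicase eIF4A, forms eIF4F. The 4E-binding proteins (4E-BPs) hold eIF4E away from eIF4G. Under ER stress the kinase PERK phosphorylates eIF2α, phosphorylated eIF2 inhibits eIF2B, most initiation slows and the transcription factor ATF4 is made. EIF4EBP1, which encodes 4E-BP1, has been described as an ATF4 target gene in mouse pancreatic beta cells.

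Expected HEK293 markers were present in every group, since 5 of 6 reported here (KRT8, KRT18, VIM, PAX2 and NEFM, but not LHX1) had a group mean of at least 1 FPKM. Of 9 brain, blood and vessel markers only SLC17A7 reached that mean, at 1.15 FPKM in control and 1.08 in PS19 libraries. It had 0.686 FPKM in thapsigargin libraries. The 9 markers summed to 1.26 to 2.97 FPKM per library. The thapsigargin labels were checked with DDIT3, TRIB3 and HSPA5, targets of the stress response. DDIT3 had 10.4 ± 2.64 FPKM in control and 139.7 ± 16.6 in thapsigargin cells (SD, n = 5), and all 3 genes rose under every alternative. Within a group the log2 values of library pairs correlated at 0.991 or more in control, 0.995 or more in PS19 and only 0.963 or more in thapsigargin libraries. The FPKM of all genes summed to 506146 to 552511 in control, 523601 to 547043 in PS19 and 551499 to 637687 in thapsigargin libraries, so values were not on 1 common total, and initiation factor genes made up 1.37 to 1.49% of these sums. Control libraries 1 and 2 stood apart from control libraries 3 to 5, and thapsigargin libraries 3 and 5 lay nearer to control than the other thapsigargin libraries. In such bulk RNA a change in every cell and a change in the share of cells that respond cannot be told apart. The methods give a number of reads per sample only in general, and the tables give none for single libraries. The depth behind each value is therefore unknown, and precision is given only by the spread of the 5 libraries.

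Sequence around the annotated starts was examined because translation of many mRNAs of the translation machinery is controlled through a run of pyrimidines at their first bases (a terminal oligopyrimidine tract). RefSeq promoters, 250 bases before to 50 bases after each start on GRCh38.p14, were found for 43 of the 51 genes, which have 59 promoters in the table of 35116. A C at the first transcribed base followed by at least 4 C or T was present in 10 member promoters (16.9%) against 4.07% of all promoters in the table. This feature was chosen after the sequences had been seen, and a match is a description of the letters only. The tracts of 6 genes are shown because this feature is shared by genes that rose (EIF2A and EIF3M), fell (EIF3D, EIF4B and EIF4A2) and did not pass the test (EIF3F) in thapsigargin cells. Each line gives 10 bases before and 20 bases from the start, with the tract in capitals.
EIF2A, chr3:150546777-150546806, plus strand: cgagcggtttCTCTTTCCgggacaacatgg
EIF3M, chr11:32583821-32583850, plus strand: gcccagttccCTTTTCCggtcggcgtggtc
EIF3D, chr22:36529147-36529176, minus strand: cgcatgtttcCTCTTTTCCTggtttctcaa
EIF4B, chr12:53006446-53006475, plus strand: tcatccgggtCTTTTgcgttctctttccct
EIF4A2, chr3:186783567-186783596, plus strand: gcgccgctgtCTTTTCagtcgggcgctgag
EIF3F, chr11:7987327-7987356, plus strand: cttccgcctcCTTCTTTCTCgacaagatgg

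Of 9 tested genes with the tract, EIF2A, EIF2D and EIF3M rose in thapsigargin cells, EIF2S3, EIF3D, EIF4A2 and EIF4B fell, and EIF3F and EIF3K did not pass the test. Among all genes 26% were higher and 43.4% lower, so these counts are close to the background and say nothing about the tract. The tenth, EIF2S3B, was too low to test. A binding motif of the ATF4 and CHOP family (TGATGNAA, either strand) was searched in the same promoters. It was found in 1 member promoter, that of EIF4E3, and in 3.62% of all promoters, and the window is shown because EIF4E3 is the member that has it. The window is written in the direction of the gene. The plus strand named for the motif is that of the sequence as written, so the motif lies on the strand of the gene.
EIF4E3, chr3:71729113-71729142, minus-strand gene, motif on the plus strand: tgccatggtgaTGATGAAAgttgggctgat

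Not used here were promoters of EIF2S2, EIF3A, EIF3C-like (EIF3CL), EIF3E, EIF3G, EIF3H, EIF3L and EIF4EBP1.

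No initiation factor gene passed the test between PS19 and control lysate. By limma with an adjusted p under 0.1, 0 of 46 genes were higher and 0 were lower, where 0.0425% of all 11753 tested genes passed (2 genes or 0.017% higher and 3 genes or 0.0255% lower). At an unadjusted p under 0.05 there were 2 of 46 (4.35%), against 6.01% of all genes. The median log2 difference was 0.01 over the 46 genes and -0.01 over all genes, and the 46 values lay between -0.12 and 0.15. The 95% interval reached a median of 0.12 to either side, and for 45 of 46 genes it lay within 0.5 of no difference, the exception being EIF3CL.

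The smallest unadjusted p belonged to EIF2B3, the gene of the γ subunit of eIF2B. EIF2B3 had 28.1, 28.4, 28.5, 27.4 and 28.0 FPKM in control libraries 1 to 5 and 28.6, 29.8, 31.1, 31.4 and 31.1 FPKM in PS19 libraries 1 to 5. Every PS19 value lay above every control value, the only tested initiation factor gene with this property (2.17%, against 1.01% of all genes in either direction). Its log2 difference was 0.11 (SE 0.046) with an adjusted p of 0.809. EIF3K, a small eIF3 subunit, had the largest difference at 0.15 (SE 0.066, adjusted p 0.818), with 205, 218, 233, 182 and 202 FPKM in control and 219, 219.6, 237, 225 and 251.94 FPKM in PS19 libraries, and its groups overlapped. EIF5B, the GTPase of subunit joining, was at 0.11 (SE 0.054, adjusted p 0.826). At the other end, EIF5A2, the minor eIF5A gene, was at -0.12, EIF4A2 and EIF4E3 both at -0.10 and EIF5 and EIF4G3 both at -0.08, each with an adjusted p of 0.828 to 0.892.

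Genes of the eIF2 and eIF2B step stayed close to control in PS19 cells. EIF2S2, the β subunit of eIF2, had 122 ± 3.04 FPKM in control and 119 ± 4.05 in PS19 libraries, a log2 difference of -0.03 with a 95% interval of -0.13 to 0.06. EIF4EBP1 had 295 ± 38.2 and 286 ± 14.2 FPKM, with an interval of -0.20 to 0.13. For both genes an increase of the size measured in thapsigargin cells, given below, lies outside that interval.

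The absence of calls in the PS19 comparison depended on the control libraries used. With control libraries 1 and 2 left out together, an alternative chosen after seeing the data, 4 initiation factor genes were higher (EIF3F, EIF3G, EIF5B and EIF6) and 3 lower (EIF4E3, EIF4G3 and EIF5), by log2 differences of 0.13 to 0.18 and -0.23 to -0.19. In that same fit 877 genes were higher and 1561 lower among all genes, compared with 2 and 3 from all libraries. EIF5, the GTPase-activating protein of eIF2, showed the split, with 39.7, 41.4, 48.6, 52.2 and 59.2 FPKM in control libraries 1 to 5 and 45.9, 40.7, 47.6, 45.3 and 46.5 FPKM in PS19 libraries 1 to 5. All PS19 values lay inside the range of the control group. No single library left out gave a call among the 46 genes.

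**Figure D1:**
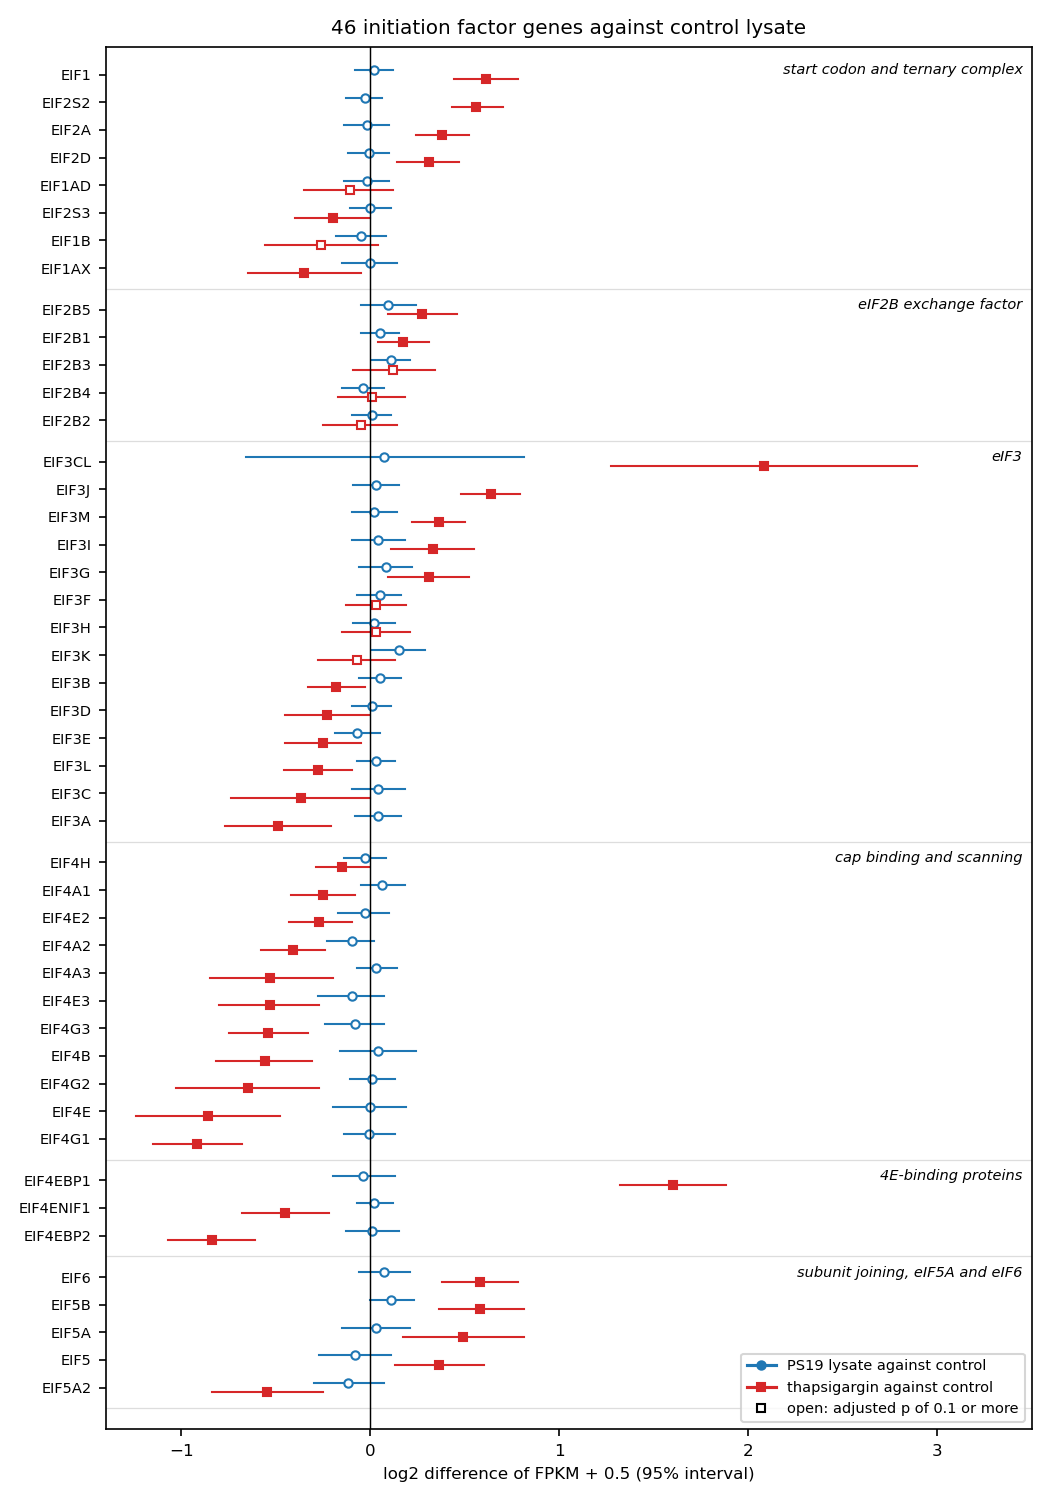
Log2 differences of FPKM + 0.5 for the 46 tested initiation factor genes, grouped by role, with 95% intervals from limma (n = 5 libraries per group). Circles are PS19 against control and squares thapsigargin against control, filled where the adjusted p is under 0.1. The PS19 values stay between -0.12 and 0.15, while the thapsigargin values run from -0.92 for EIF4G1 to 2.08 for EIF3CL.

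Thapsigargin changed most initiation factor genes, in both directions. Of 46 tested, 16 rose and 22 fell (82.6%), where 69.4% of all 11753 genes passed the test. Upward the share was 34.8% against 26% of all genes, and downward 47.8% against 43.4%. Values of the groups did not overlap for 24 of the 46 (52.2%), against 40% of all genes. The median log2 difference was -0.13 over the 46 genes and -0.13 over all genes.

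These splits depend on how libraries are put on 1 scale. After rescaling to TPM (values scaled to the same sum in every library) the median of all genes moved to -0.29. Then 12 initiation factor genes were higher and 27 lower, beside 2039 and 6424 of all 11753 genes. After median-ratio scaling the median was 0.00, with 18 higher and 12 lower, beside 4014 and 3937 of all genes. Quantile normalization gave 13 higher and 25 lower, beside 3716 and 4132 of all genes. Downward under median-ratio scaling and upward under quantile normalization, initiation factor genes had a smaller share than all genes. For EIF2S3, EIF3B and EIF4G1 the change is therefore also given below relative to the median gene of -0.13. Of the others called lower, EIF4H was at -0.02 relative to that median. EIF3D was at -0.10, EIF4A1 and EIF3E both at -0.12 and EIF4E2 at -0.14 by the same measure. Calls that held under every alternative in which the gene was tested were 11 of the 16 higher (EIF1, EIF2A, EIF2D, EIF2S2, EIF3CL, EIF3J, EIF3M, EIF4EBP1, EIF5A, EIF5B and EIF6) and 11 of the 22 lower (EIF3A, EIF4A2, EIF4A3, EIF4B, EIF4E, EIF4EBP2, EIF4ENIF1, EIF4G1, EIF4G2, EIF4G3 and EIF5A2).

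**Figure D2:**
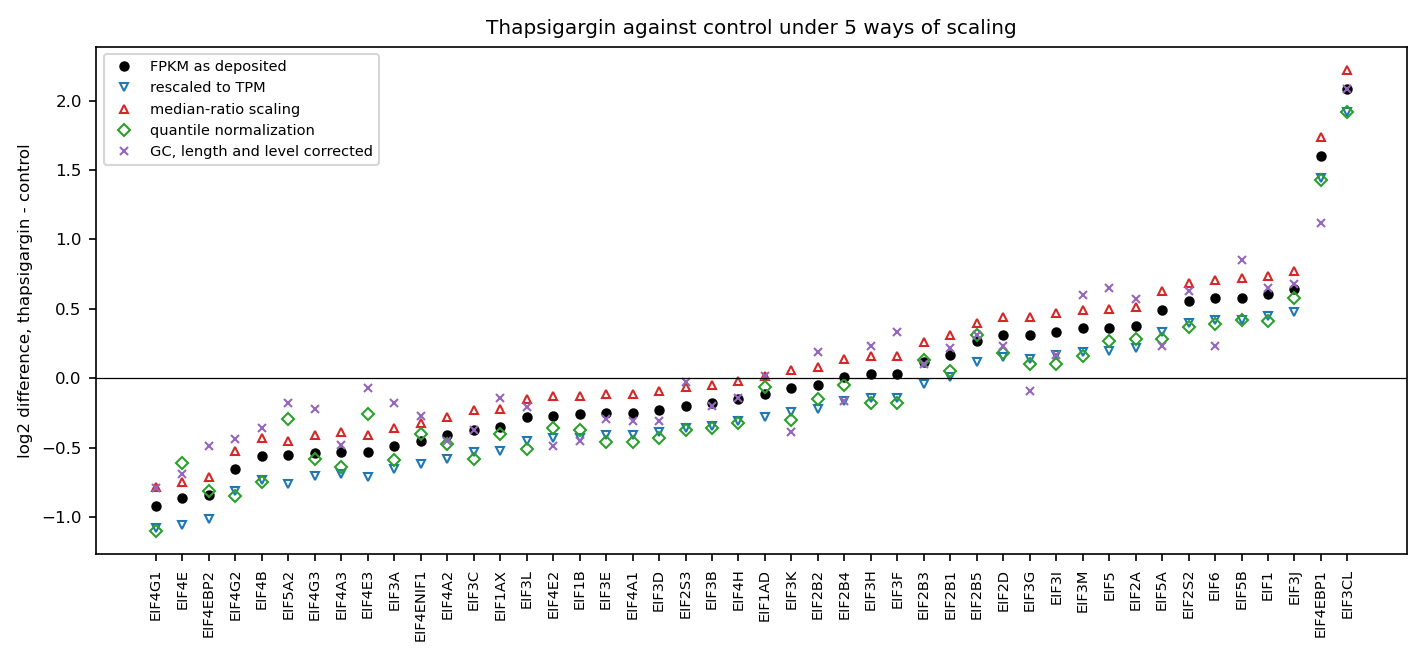
Log2 differences of the 46 genes between thapsigargin and control under 5 ways of scaling, ordered by the value from FPKM as deposited. EIF4EBP1 lies between 1.12 and 1.74 and EIF4G1 between -1.10 and -0.78 in all 5, while genes near the middle, such as EIF2B4 and EIF3F, change sign.

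At the start codon step, 4 of 8 tested genes rose, 2 fell and 2 did not pass, where 26% of all genes were higher and 43.4% lower. EIF1, which guards start codon choice on the small subunit, had 242, 246, 248, 239 and 237 FPKM in control libraries 1 to 5 and 356, 323, 412, 363 and 402 FPKM in thapsigargin libraries 1 to 5. All thapsigargin values were above all control values, with a log2 difference of 0.61 (SE 0.078, adjusted p 5.88e-05). EIF1B, a close relative of EIF1, went from 69.9 ± 3.72 to 59.5 ± 14.1 FPKM and did not pass the test (adjusted p 0.114). EIF1AX, which encodes eIF1A, fell by 0.35 on the log2 scale (adjusted p 0.0429), a call lost without control library 4, without thapsigargin library 1 and under median-ratio scaling.

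The 2 tested genes of eIF2 subunits moved in opposite directions. EIF2S2 had 124, 124, 125, 118 and 121 FPKM in control libraries 1 to 5, 119, 124, 118, 113 and 122 FPKM in PS19 libraries and 172, 188, 175, 177 and 190.4 FPKM in thapsigargin libraries. The thapsigargin group lay entirely above the others, with a log2 difference of 0.56 (SE 0.062, adjusted p 2.32e-05) against control. EIF2S3, the γ subunit that binds GTP and the initiator tRNA, had 105, 109, 107, 121 and 116 FPKM in control and 94.0, 79.8, 114, 95.6 and 106 FPKM in thapsigargin libraries, which overlapped. Its log2 difference of -0.20 (SE 0.093, adjusted p 0.0792) was only -0.07 relative to the median gene, and the call was lost in 11 of 25 alternatives. EIF2S3 and the barely detected EIF2S3B, whose mean was 0.04 FPKM in control, are identical at 98.2% of coding bases, so reads of one could be counted for the other.

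EIF2A and EIF2D encode factors that can deliver tRNA to the ribosome without eIF2, and EIF2A is not the α subunit of eIF2 despite its name. EIF2A rose by 0.38 (SE 0.064, adjusted p 4.30e-04), from 52.1 ± 1.87 to 67.9 ± 3.55 FPKM. EIF2D rose by 0.31 (SE 0.075, adjusted p 0.00397), from 57.9 ± 3.9 to 71.7 ± 5.13 FPKM. Groups did not overlap for either gene. EIF1AD, named for a domain it shares with eIF1A, was at -0.11 (adjusted p 0.365).

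The exchange factor eIF2B has 5 subunits, and 2 of their genes rose while none fell, beside 26% of all genes higher and 43.4% lower. EIF2B5, the catalytic ε subunit and the lowest of the 5 in FPKM, had 18.7, 18.6, 21.0, 15.8 and 18.6 FPKM in control and 22.1, 21.4, 22.7, 20.9 and 25.2 FPKM in thapsigargin libraries 1 to 5. Its groups overlapped by the value of control library 3, and it rose by 0.27 (SE 0.086, adjusted p 0.0153). EIF2B1, the α subunit and the highest of the 5, rose by 0.17 (SE 0.064, adjusted p 0.0317), from 65.0 ± 2.49 to 73.5 ± 3.76 FPKM. Neither call held after rescaling to TPM, where EIF2B1 was at 0.01. EIF2B2 (β), EIF2B3 (γ) and EIF2B4 (δ) were at -0.05, 0.12 and 0.01 and did not pass, although EIF2B2 passed as higher and EIF2B4 as lower once values were corrected for GC content, transcript length and level. The highest subunit mean was 3.51 times the lowest in control, 3.42 times in PS19 and 3.27 times in thapsigargin cells.

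**Figure D3:**
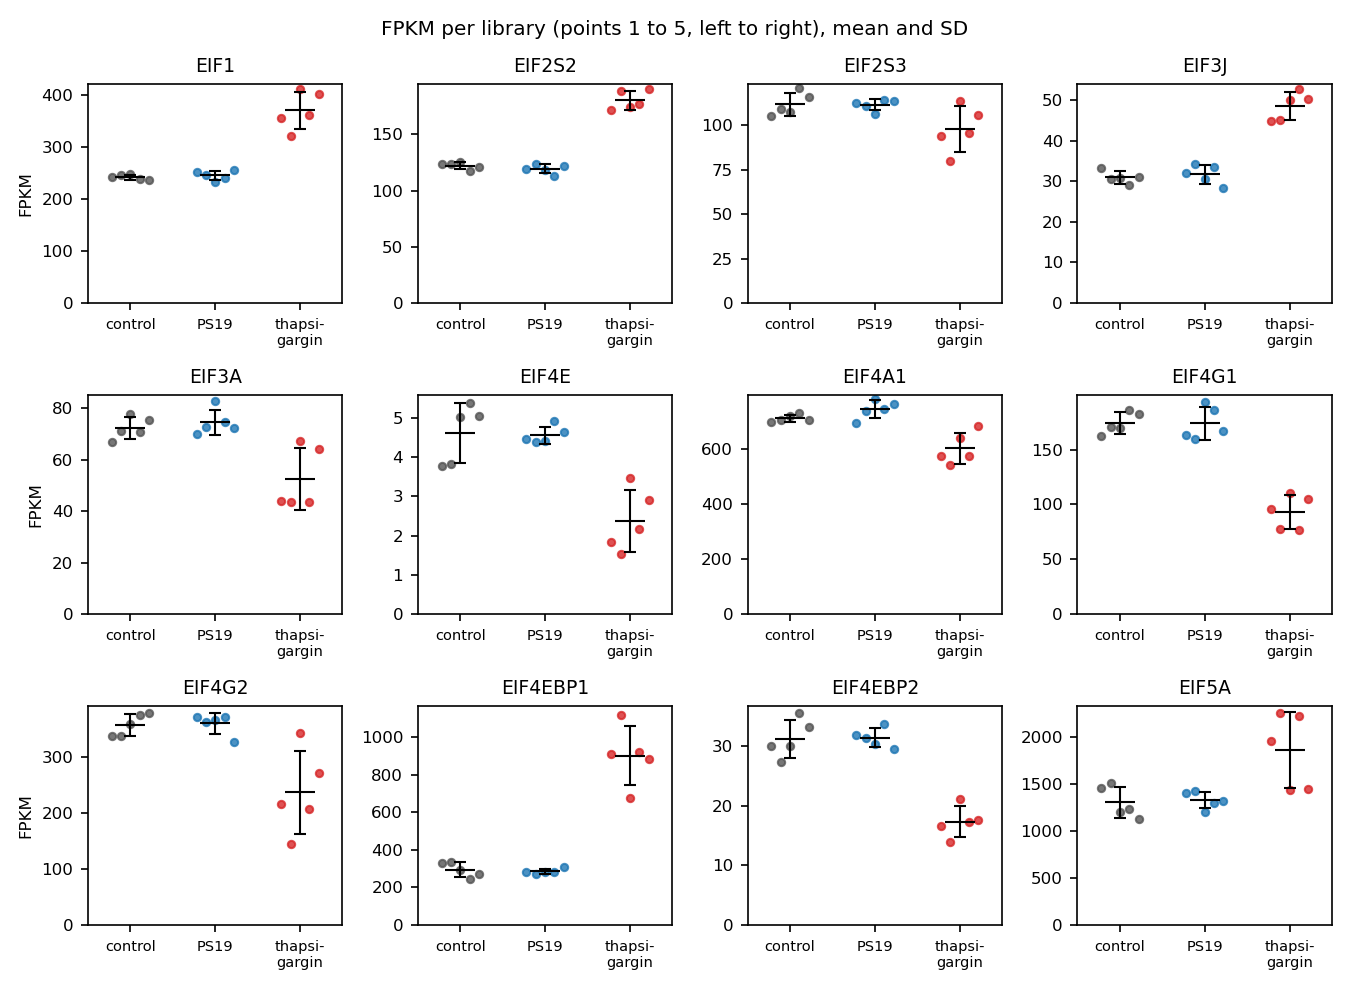
FPKM of 12 initiation factor genes in each library, with group mean and SD (n = 5) and every axis starting at 0. EIF1, EIF2S2, EIF3J and EIF4EBP1 lie above both other groups in all 5 thapsigargin libraries and EIF4E, EIF4G1, EIF4EBP2 and EIF4A1 below both, while control and PS19 points overlap in every panel.

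Subunits of eIF3, the large scaffold on the small ribosomal subunit, had calls in both directions. Among 14 tested genes 5 rose (EIF3CL, EIF3G, EIF3I, EIF3J and EIF3M), 6 fell (EIF3A, EIF3B, EIF3C, EIF3D, EIF3E and EIF3L) and EIF3F, EIF3H and EIF3K did not pass. These counts lie near the shares of all genes, 26% higher and 43.4% lower, and are no result about eIF3 as a group. Under median-ratio scaling 6 rose and only EIF3A fell, beside 4014 and 3937 of all 11753 genes. With single libraries left out the number that fell was 3 to 6, beside 4684 to 5472 of all genes. EIF3J, a loosely bound subunit at the mRNA entry channel, had 33.4, 30.6, 30.9, 29.1 and 30.9 FPKM in control libraries 1 to 5 and 44.8, 45.0, 49.97, 52.6 and 50.3 FPKM in thapsigargin libraries 1 to 5. Its groups were clearly apart, with a log2 difference of 0.64 (SE 0.072, adjusted p 2.51e-05). EIF3M rose by 0.36 (SE 0.066, adjusted p 6.85e-04), from 239.5 ± 8.92 to 307 ± 15.2 FPKM.

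EIF3A, the largest subunit and a core of the assembly, had 66.8, 71.2, 77.8, 70.8 and 75.4 FPKM in control libraries 1 to 5 and 43.8, 43.5, 67.1, 43.5 and 64.2 FPKM in thapsigargin libraries 1 to 5. Thapsigargin libraries 1, 2 and 4 were far below control, while library 3 overlapped it and library 5 came close. The log2 difference was -0.49 (SE 0.13, adjusted p 0.00632). EIF3B fell by only 0.18 (SE 0.071, adjusted p 0.0414), or -0.05 relative to the median gene, and lost its call without control library 2. EIF3I rose by 0.33 (adjusted p 0.0128) and EIF3G by 0.31 (adjusted p 0.0177), but EIF3I lost its call under quantile normalization and EIF3G under TPM, under quantile normalization and after GC and length correction. EIF3D, EIF3E and EIF3L, at -0.23, -0.25 and -0.28, all lost their calls under median-ratio scaling, and EIF3D kept its call in only 17 of 25 alternatives. Leaving out EIF3C, EIF3CL and EIF3J, the highest of 11 subunit means (EIF3I) was 4.56 times the lowest (EIF3A) in control, 4.55 times in PS19 and 7.95 times in thapsigargin cells. These transcripts have 1421 and 6659 bases, and after GC, length and level correction EIF3I was at 0.17 and EIF3A at -0.18. The ratio of means was not computed after that correction.

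EIF3C and EIF3CL are near-identical copies whose coding bases are identical at 99.9% of positions, so the split of reads between them is uncertain. EIF3CL had 107, 83.0, 44.8, 46.5 and 25.9 FPKM in control libraries 1 to 5, 71.7, 65.6, 23.0, 70.8 and 80.8 FPKM in PS19 libraries and 281, 389.6, 121, 289 and 177 FPKM in thapsigargin libraries. EIF3C had 252.03, 279.7, 282, 264 and 277 FPKM in control libraries and 193, 147, 297, 169 and 284 FPKM in thapsigargin libraries, and was lowest where EIF3CL was highest. Taken singly, EIF3CL rose by 2.08 (SE 0.37, adjusted p 5.73e-04) and EIF3C fell by 0.37 (SE 0.17, adjusted p 0.0782), a call kept in only 14 of 25 alternatives and lost without any 1 of control libraries 2 to 5 or of thapsigargin libraries 1, 2 and 4. The sum of both genes does not depend on the split, and it rose from 303 to 363 FPKM in control and 327 to 352 in PS19 to 418 to 537 in thapsigargin libraries. The log2 difference of the sum was 0.50 against control, with every thapsigargin library above every control library (exact two-sided permutation test, p = 0.0079, the smallest that 5 against 5 libraries can give, adjusted p 0.0185 over 21 tests of ratios and sums).

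**Figure D4:**
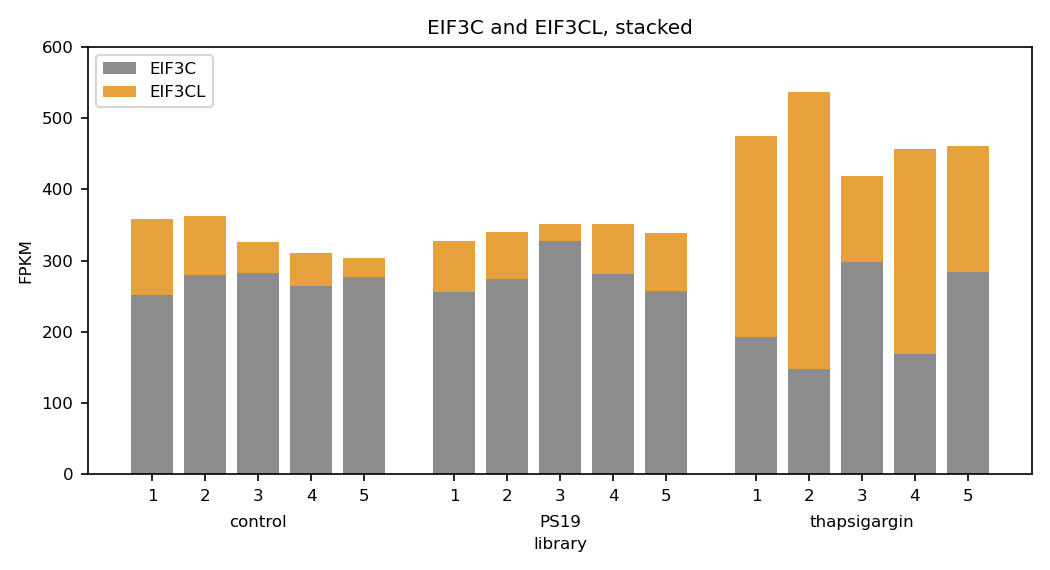
FPKM of EIF3C (grey) and EIF3CL (orange) stacked for each of the 15 libraries. The total is 303 to 363 in control, 327 to 352 in PS19 and 418 to 537 in thapsigargin libraries, and the orange share is largest in thapsigargin library 2.

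The cap-binding and scanning factors all fell in thapsigargin cells. Of 11 tested genes of the eIF4A, eIF4B, eIF4E, eIF4G and eIF4H families, 11 fell and none rose, beside 43.4% of all genes lower, with a median of -0.53 against -0.13 for all genes. The number that fell was 11 under TPM and quantile normalization, beside 6424 and 4132 of all 11753 genes lower. It was 10 after GC, length and level correction (without EIF4E3), beside 4077 of 11317 genes. With single libraries left out it was 10 or 11, beside 4684 to 5472 of all genes. Under median-ratio scaling it was 8 (without EIF4A1, EIF4E2 and EIF4H), beside 3937 of all genes. None rose in any alternative.

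EIF4G1, the main scaffold of eIF4F, had 163, 171, 169.6, 186 and 183 FPKM in control libraries 1 to 5, 163, 159.8, 194, 186 and 167 FPKM in PS19 libraries and 96.1, 77.6, 110.2, 76.5 and 105 FPKM in thapsigargin libraries. The thapsigargin values were well below all others, with a log2 difference of -0.92 (SE 0.11, adjusted p 3.26e-05) against control, or -0.79 relative to the median gene. EIF4G3, a second scaffold of the same kind, had 39.4, 40.3, 45.0, 46.1 and 52.7 FPKM in control and 29.6, 31.5, 35.1, 30.3 and 26.4 FPKM in thapsigargin libraries, without overlap, and fell by 0.54 (SE 0.097, adjusted p 5.99e-04). EIF4G2 (also called DAP5), a relative that lacks the eIF4E binding site, was the most abundant of the family with 337, 338, 358, 375 and 378 FPKM in control and 216, 145, 342, 208 and 271 FPKM in thapsigargin libraries. Its thapsigargin library 3 overlapped the control group, library 2 was lowest, and the gene fell by 0.65 (SE 0.18, adjusted p 0.00691).

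EIF4E, the cap-binding protein, was low in these tables, with 3.77, 3.82, 5.03, 5.38 and 5.06 FPKM in control, 4.46, 4.38, 4.41, 4.91 and 4.64 FPKM in PS19 and 1.84, 1.52, 3.46, 2.16 and 2.91 FPKM in thapsigargin libraries 1 to 5. Control libraries 1 and 2 had the lowest control values, and the highest thapsigargin value, in library 3, was still below them. EIF4E fell by 0.86 (SE 0.18, adjusted p 0.00131), on a scale that understates the change of low genes. EIF4E2, which binds caps but mostly represses, fell by 0.27 (adjusted p 0.00829) and EIF4E3 by 0.53 (adjusted p 0.00259), and the latter was at -0.07 and lost its call after GC, length and level correction.

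EIF4A1, the main helicase and after EIF5A the most abundant initiation factor transcript in control, had 700.1, 705, 719.8, 733 and 707 FPKM in control and 574, 542, 639.6, 575 and 684 FPKM in thapsigargin libraries 1 to 5. Its groups did not overlap and it fell by 0.25 (SE 0.079, adjusted p 0.0166), a call lost under median-ratio scaling. EIF4A2, a paralogue with 76.6% of coding bases in common, had 48.2, 44.2, 44.5, 47.9 and 51.2 FPKM in control and 32.6, 32.6, 39.3, 38.5 and 34.1 FPKM in thapsigargin libraries, and fell by 0.41 (SE 0.079, adjusted p 8.79e-04). EIF4A3, which works in the exon junction complex rather than in cap-dependent scanning, fell by 0.53 (SE 0.15, adjusted p 0.00935). Of the helicase cofactors, EIF4B fell by 0.56 (SE 0.12, adjusted p 0.00151) and EIF4H by 0.15 (SE 0.067, adjusted p 0.0657), the smallest change called and lost in 8 of 25 alternatives. EIF4B also split the control group, with 111, 109, 141, 143 and 152 FPKM in control libraries 1 to 5.

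The proteins that restrain eIF4E moved apart. EIF4EBP1 had 329.7, 336, 293, 247 and 269 FPKM in control libraries 1 to 5, 282, 273, 281, 282 and 310.4 FPKM in PS19 libraries and 909, 1119.6, 679, 919 and 882 FPKM in thapsigargin libraries. Every thapsigargin library held over 2 times the highest control value, and the log2 difference of 1.60 (SE 0.13, adjusted p 1.79e-06) corresponds to a 3.04-fold rise. Across alternatives this difference was 1.12 to 1.74, the lowest after GC, length and level correction. EIF4EBP2, which encodes the related 4E-BP2, had 30.1, 27.3, 30.0, 35.5 and 33.2 FPKM in control and 16.7, 13.8, 21.1, 17.3 and 17.6 FPKM in thapsigargin libraries, without overlap, and fell by 0.84 (SE 0.11, adjusted p 5.96e-05). EIF4ENIF1, which carries eIF4E into the nucleus and to repressed mRNAs, fell by 0.45 (SE 0.11, adjusted p 0.00318). EIF4EBP3 stayed under the limit for testing, at 0, 0.37, 0.31, 0.22 and 0.3 FPKM in control and 1.13, 1.47, 0, 0.55 and 1.15 FPKM in thapsigargin libraries, and it overlaps a readthrough gene with ANKHD1, so these reads are uncertain.

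Of 5 tested genes of the late steps (subunit joining, eIF5A and eIF6), 4 rose and EIF5A2 fell, beside 26% of all genes higher and 43.4% lower, with a median of 0.49 against -0.13 for all genes. EIF6, which keeps free large subunits from joining, had 139, 146, 123, 124 and 114 FPKM in control libraries 1 to 5 and 207, 213, 164, 199 and 185 FPKM in thapsigargin libraries 1 to 5. No thapsigargin value reached down to control, and EIF6 rose by 0.58 (SE 0.093, adjusted p 2.85e-04). EIF5B rose by 0.58 (SE 0.1, adjusted p 5.60e-04), from 69.5, 68.6, 60.8, 62.3 and 60.3 FPKM in control to 88.2, 121, 86.0, 106 and 84.7 FPKM in thapsigargin libraries. EIF5 had 57.0, 66.3, 66.0, 61.7 and 57.4 FPKM in thapsigargin libraries and rose by 0.36 (SE 0.11, adjusted p 0.0108), but control library 5 reached into that range and the call was lost under TPM.

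EIF5A, the most abundant transcript of the set, helps ribosomes along difficult stretches and is the protein that carries the amino acid hypusine. EIF5A had 1456, 1504, 1196, 1230.4 and 1130.1 FPKM in control libraries 1 to 5, 1400.1, 1422, 1202, 1296 and 1314 FPKM in PS19 libraries and 1951, 2249.6, 1427, 2221 and 1442 FPKM in thapsigargin libraries. Thapsigargin libraries 3 and 5 lay within the control range and the other thapsigargin libraries far above it, and EIF5A rose by 0.49 (SE 0.15, adjusted p 0.0122). EIF5A2, with 71.6% of coding bases in common, had 1.66, 1.67, 1.74, 2.24 and 1.93 FPKM in control and 0.92, 0.72, 1.58, 1.23 and 1.17 FPKM in thapsigargin libraries and fell by 0.55 (SE 0.14, adjusted p 0.00422). EIF5AL1, a copy with 98.9% of coding bases in common with EIF5A, had a mean of 0.1 FPKM in control, and with EIF1AY, EIF2S3B, EIF4E1B and EIF4EBP3 it makes up the 5 genes left out of the tests.

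Ratios between related genes are taken within a library and so do not depend on a scaling factor per library (tests used log2 of FPKM + 0.5). The pairs differ in transcript length, with 827 and 7491 bases for EIF4EBP1 and EIF4EBP2 and 1264 and 5534 for EIF5A and EIF5A2. EIF1, with 2338 bases, is longer than EIF1B, with 987. After GC, length and level correction these genes were at 1.12 and -0.49, 0.23 and -0.18, and 0.65 and -0.45 against control. No ratio was computed after that correction, and the part of length was not tested. The ratio of EIF4EBP1 to EIF4E FPKM was 87.4, 87.8, 58.2, 45.8 and 53.2 in control libraries 1 to 5, 63.3, 62.4, 63.7, 57.5 and 66.9 in PS19 libraries and 494, 737, 196, 425 and 303 in thapsigargin libraries. Groups were apart, and the log2 difference between thapsigargin and control was 2.46 (exact two-sided permutation test, p = 0.0079, adjusted p 0.0185). The ratio of EIF4EBP1 to EIF4EBP2 rose by 2.44 on the log2 scale, from a mean of 9.61 to 54.2, and that of EIF1 to EIF1B by 0.87, from 3.47 to 6.41, each with the same exact permutation p and adjusted p. EIF5A to EIF5A2 rose by 1.04 (exact permutation p = 0.016, adjusted p 0.0333) and EIF4G1 to EIF4G3 fell by 0.38 (exact permutation p = 0.024, adjusted p 0.0417). For EIF4A1 to EIF4A2 the difference of 0.17 did not pass at an adjusted p of 0.103. Between PS19 and control none of the 6 ratios passed, the smallest exact permutation p being 0.087 for EIF4A1 to EIF4A2.

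**Figure D5:**
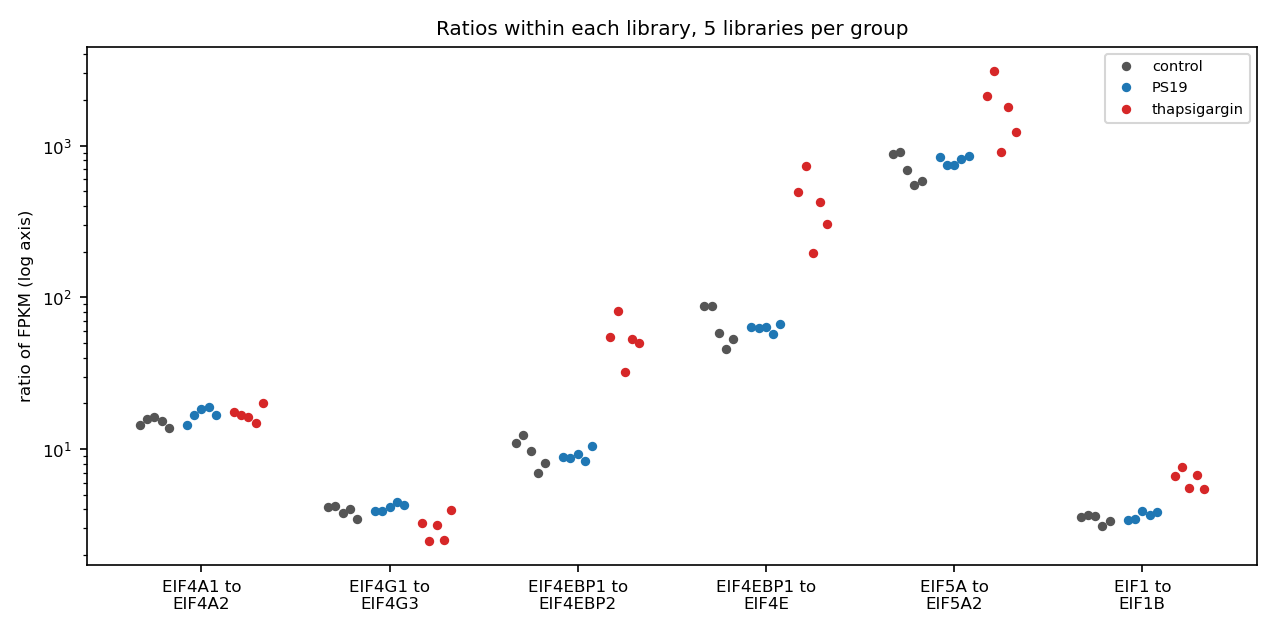
Ratio of FPKM within each library for 6 pairs of genes, on a log axis, with 5 libraries for each group. EIF4EBP1 to EIF4E is 45.8 to 87.8 in control, 57.5 to 66.9 in PS19 and 196 to 737 in thapsigargin libraries, while EIF4A1 to EIF4A2 overlaps between all groups.

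Compared directly with PS19 lysate, thapsigargin gave the same numbers of calls, 16 higher and 22 lower of 46 (82.6%), where 68% of all genes passed, 25.8% higher and 42.2% lower. In order of p, EIF4EBP1 came first at 1.64 (SE 0.11, adjusted p 2.71e-07), followed by EIF2S2 at 0.59 (SE 0.06, adjusted p 9.48e-06), EIF4EBP2 at -0.85 and EIF4G1 at -0.91. The largest difference was that of EIF3CL, at 2.01. All 11 tested cap-binding and scanning genes were lower here too. Under median-ratio scaling 9 were lower (without EIF4E2 and EIF4H), beside 3935 of all 11753 genes. After GC, length and level correction 8 were lower (without EIF4E3, EIF4G3 and EIF4H), beside 4079 of 11317 genes. EIF4H (-0.12, adjusted p 0.0974) kept its call in only 10 of 24 alternatives and was at 0.00 under that scaling, and EIF4G3 and EIF4E3 were at -0.16 and -0.05 after that correction. EIF3K passed as lower in this comparison (-0.22, adjusted p 0.0347) and EIF3E did not (-0.18, adjusted p 0.124), the reverse of the comparison with control. This comparison uses the same thapsigargin libraries, so it is no independent repeat of the one with control.

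Other genes of the translation cycle were taken from 3 lists. Of 21 genes of proteins that assist or regulate initiation, none passed in PS19 cells, while in thapsigargin cells 3 rose and 12 fell with a median of -0.23, beside 26% of all genes higher, 43.4% lower and a median of -0.13. MKNK1, a kinase of eIF4E, fell by 0.45 (SE 0.069, adjusted p 2.26e-04), CYFIP1, an eIF4E-binding partner of FMRP, by 0.74 (SE 0.13, adjusted p 4.67e-04) and DHPS, the first enzyme of hypusine synthesis on eIF5A, rose by 0.41 (SE 0.079, adjusted p 9.41e-04). Under median-ratio scaling 3 of the 21 rose and 7 fell, beside 4014 and 3937 of all 11753 genes. DHPS, MKNK1 and CYFIP1 passed in every alternative. Among 7 elongation factor genes 1 rose and 2 fell with a median of -0.09, beside 26% of all genes higher and 43.4% lower. EEF1D rose by 0.54 (adjusted p 0.0051), EEF1A1 fell by 0.49 (adjusted p 0.0049) and EEF2K by 0.25 (adjusted p 0.0382). EEF2K had no call under median-ratio scaling, quantile normalization or GC, length and level correction. Of 5 tested termination and recycling genes, 4 fell and none rose, beside 43.4% of all genes lower, led by PELO at -0.53 (adjusted p 0.00461) and HBS1L at -0.41 (adjusted p 0.0284), a pair that rescues stalled ribosomes, and by ETF1, a release factor, at -0.34 (adjusted p 0.0614). Only 2 of these 5 were lower under median-ratio scaling, beside 3937 of all 11753 genes. After GC, length and level correction 1 was lower, beside 4077 of 11317 genes. In PS19 cells none of the 7 and none of the 5 passed by limma, and none of all 33 tested genes of the 3 lists had an unadjusted p under 0.05. With control libraries 1 and 2 left out, EEF1D was higher and HBS1L and DDX3X, an RNA helicase among the initiation helpers, were lower in PS19 cells. In that fit 877 of all 11753 genes were higher and 1561 lower, so these calls say nothing about the lists. Of the 3 stress genes, DDIT3 and HSPA5 were lower there too.

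Thapsigargin libraries differed among themselves in how far these genes moved. Of the 22 genes that fell, the value nearest to the control mean was in library 3 for 14 and in library 5 for 6, and the value farthest from it was in library 2 for 16. Of the 16 genes that rose, the farthest value was in library 2 for 8, while the nearest was spread over all 5 libraries. EIF1 and EIF3J were higher in libraries 3 and 5 than in library 2, whereas EIF5A and EIF4EBP1 were highest in library 2. With libraries 3 and 5 left out together, 16 initiation factor genes were higher and 24 lower, beside 3446 and 5676 of all genes. The part of treatment, RNA quality or depth in this difference between libraries was not tested.

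Transcript length moved with the thapsigargin differences. Across the 46 genes the log2 difference correlated with log2 length at r = -0.34, and across 11317 genes with a known length at r = -0.42, given as a description since genes share the libraries. The median length was 2438 bases for initiation factor genes that rose and 3276 for those that fell, against 2144 and 4404 bases among all genes. After correction of each library for GC content, length and level, 18 initiation factor genes were higher and 23 lower. In that fit 3759 of all 11317 genes were higher and 4077 lower. EIF4EBP1, a transcript of 827 bases, kept a difference of 1.12 and EIF4G1, of 5405 bases, one of -0.79. Of the 38 genes called without it, 9 kept less than 0.5 of their log2 difference or changed sign. EIF6 went from 0.58 to 0.23, EIF5A from 0.49 to 0.23, EIF4G3 from -0.54 to -0.22, EIF3A from -0.49 to -0.18, EIF5A2 from -0.55 to -0.18 and EIF1AX from -0.35 to -0.14, all still called. EIF3G at -0.09, EIF2S3 at -0.03 and EIF4E3 at -0.07 lost their calls. The part of length in the uncorrected values was otherwise not tested.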

How the data were processed

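RNA-Seq of Biosensor cells gave 15 libraries, 5 per group by their labels. Per the methods and the submitters' processing notes, the authors used SOAPnuke for read filtering, HISAT2 2.0.4 for mapping (GRCh38.p12) and RSEM 1.2.12 for expression. The deposited unit is FPKM for each gene in each library. One control column also holds text in 408 rows that name no gene, and its gene rows were used as FPKM. Scaling between libraries is not given in the sources used here. Only 1.6% of 4538 low genes showed steps of whole reads (tolerance 0.15 reads), so the depth of each library and counting errors are unknown.

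Log2(FPKM + 0.5) values were compared for each pair of groups with limma 3.58.1 in R 4.3.3 (mean-variance trend, two-sided) over the 11753 genes that averaged 1 FPKM or more. Benjamini-Hochberg adjustment covered all of them, and the threshold was 0.1. Fits were also run on simulated data with independent noise for each gene and library. That check does not cover shifts shared by many genes of a library. The 6 ratios and 1 sum were tested by exact permutation (scipy 1.17.1). Members and lists were chosen with earlier results of these data known. Every member is named, those of core complexes and of smallest p in detail. Coding identity and length came from the longest open reading frame and the canonical transcript of a GENCODE annotation of another build (96.3% of tested genes), promoters from RefSeq GRCh38.p14. Another HEK293 marker fixed with the lists is not reported here.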

Additional observations from a re-analysis of the deposited data

Results flagged for a closer look

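Among 138 sets of 5 values (46 genes in 3 groups), 4 had 1 library farther from the others than Dixon's 95% limit for 5 values (a gap of over 0.71 of the group's range), where chance alone flags about 1 in 20 sets. EIF3CL was 23.01 FPKM in PS19 library 3, against 65.57 to 80.76 in the other PS19 libraries, and EIF3C was highest of its group in that library. EIF4A3 was 75.76 FPKM in control library 5, against 80.67 to 82.05. EIF4EBP1 was 310.42 FPKM in PS19 library 5, against 273.49 to 282.38, all far below the thapsigargin libraries. EIF4G2 was 327.37 FPKM in PS19 library 5, against 362.93 to 371.35. No cause was tested.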

How the results depend on the processing

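Alternatives were another pseudocount, filter, scaling or limma setting, a block for the replicate number, 1 fit of all 15 libraries, a threshold of 0.05 and single libraries left out. Chosen after seeing the data were GC, length and level correction and the fits without pairs of libraries. Over the 46 genes, 1094 of 1101 values of the PS19 comparison under alternatives kept their call, 1066 of 1147 for thapsigargin against control and 1017 of 1101 for thapsigargin against PS19. With control libraries 1 and 2 left out, PS19 gave 4 higher and 3 lower, beside 877 and 1561 of all genes. With single libraries left out, PS19 gave 0 to 0 in both directions (all genes 0 to 3 higher and 0 to 10 lower). Thapsigargin against control then gave 16 to 17 higher and 17 to 24 lower (all genes 2759 to 3251 and 4684 to 5472). Thapsigargin against PS19 then gave 14 to 16 higher and 18 to 24 lower (all genes 2788 to 3320 and 4629 to 5448). Median-ratio scaling left 12 of the 46 genes lower against control, beside 3937 of all genes. Over all genes, the PS19 comparison had 6 higher and 7 lower with the block, 10 and 17 after GC, length and level correction, and 0 and 0 under TPM or with all libraries in 1 fit, while TPM gave 2039 higher genes for thapsigargin against control.

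Signs turned with a call in one of the fits as follows. Against control, EIF3F was -0.14 under TPM and -0.18 under quantile normalization, and after GC, length and level correction EIF3G was -0.09, EIF2B4 -0.16 and EIF2B2 0.19. Against PS19, EIF2B1 was -0.02 under TPM, EIF4H 0.00 under median-ratio scaling, and after that correction EIF3F was 0.26, EIF3G -0.11 and EIF2B2 0.18. Without a call at the changed sign, EIF3H ranged from -0.18 to 0.23, EIF2B3 from -0.04 to 0.26, EIF3K from -0.39 to 0.06 and EIF1AD from -0.28 to 0.02 against control. At 2 decimals, the alternatives of 8 of 46 genes crossed 0 against control, as did those of 8 in the comparison with PS19 and 22 between PS19 and control. The cause was not tested. Samples with the same replicate number deviated together at r = -0.209 to 0.325 for PS19 and control, -0.128 to 0.609 for thapsigargin and control (0.348 or more for 4 of 5 numbers) and -0.059 to 0.23 for thapsigargin and PS19. Since some pair of each comparison was under 0.1, the numbers were not taken as pairs. The best match was the same number for 2, 1 and 0 of 5 numbers. The replicate block gave 0 and 0 calls for PS19 (all genes 6 higher and 7 lower). It gave 16 higher and 23 lower for thapsigargin against control (all genes 3237 and 5345). For thapsigargin against PS19 it gave 15 higher and 21 lower (all genes 2964 and 4890).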
